A study of Mus musculus with 686 samples.

Results

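The liver libraries of the live animal return (LAR) arm comprised 29 of the 686 small RNA libraries of the study. They were chosen by their labels alone, as liver libraries marked LAR, whatever their counts. All mice were female BALB/cAnNTac mice, with no transgene or deletion named. The flight group (FL, n = 10) lived on the International Space Station and was returned alive to Earth. The habitat ground control (HGC, n = 9) was kept on the ground in flight hardware with temperature, humidity and carbon dioxide matched to the flight record. The vivarium ground control (VGC, n = 10) was kept in standard cages. Mice were 3 or 8 months old, with 5 and 5 in FL, 5 and 4 in HGC, and 5 and 5 in VGC. All ate the same kind of food bar. Per the study, mold found on the bars just before launch reached FL and HGC mice to an extent that is not known. The bars put in late floated freely for FL during launch and return. FL and HGC mice also shared a period of denser housing before the return, while splashdown and sea transport were met by FL alone. LAR livers were dissected fresh into lobes and snap frozen, a few days after splashdown in the case of FL. Each library came from 1 mouse, so replicates were animals. The question was which small RNAs differed between FL and HGC, and between FL and VGC, in each of 7 RNA classes. Both comparisons used the same FL libraries and are therefore not independent of each other.

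The liver is read in small RNA data mainly through miR-122-5p, a microRNA (miRNA) made almost only by hepatocytes, which takes part in the control of cholesterol and fatty acid metabolism. miR-802-5p is a further liver-enriched miRNA, also made in pancreas and kidney, and is known for raising hepatic glucose output in obesity. A mature miRNA guides an Argonaute protein to messenger RNAs that pair with its seed, the bases just after its first one, and lowers their level or translation. Small nucleolar RNAs (snoRNAs) of the C/D type guide methylation of ribosomal RNA. The large Snord115 and Snord116 arrays between Snrpn and Ube3a are an exception, since they are imprinted, are expressed from the paternal chromosome, mainly in neurons, and lack known ribosomal targets for most members. Dlk1-Dio3 is another imprinted region. It holds a large miRNA cluster expressed from the maternal chromosome in brain, endocrine cells and fetal tissue.

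The miRNAs on which the results turned are shown with their mature sequences from RefSeq (GRCm38.p6), 5′ to 3′, with the seed (bases 2 to 8) in capitals. Of 51 named miRNAs and markers looked up, 46 had an entry. miR-802-5p and miR-192-5p are shown as liver miRNAs, miR-217-5p, miR-216a-5p and miR-216b-5p as miRNAs of pancreatic acinar cells, miR-7a-5p, miR-7b-5p, miR-153-3p and miR-9-5p as miRNAs of neurons and endocrine cells, and miR-127-3p and miR-410-3p as members of the Dlk1-Dio3 cluster.
miR-802-5p: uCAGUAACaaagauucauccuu
miR-192-5p: cUGACCUAugaauugacagcc
miR-217-5p: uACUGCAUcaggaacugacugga
miR-216a-5p: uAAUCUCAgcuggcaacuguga
miR-216b-5p: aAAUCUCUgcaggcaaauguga
miR-7a-5p: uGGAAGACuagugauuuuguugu
miR-7b-5p: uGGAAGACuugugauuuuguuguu
miR-153-3p: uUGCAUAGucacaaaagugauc
miR-9-5p: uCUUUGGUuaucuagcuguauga
miR-127-3p: uCGGAUCCgucugagcuuggcu
miR-410-3p: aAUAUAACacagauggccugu

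miR-7a-5p and miR-7b-5p share the seed GGAAGAC and none of the others share theirs. miR-216b, miR-216a and miR-217 lie in 1 cluster, with mature 5p sequences at chr11:28746204-28746225, chr11:28757018-28757039 and chr11:28763761-28763783 on the plus strand. miR-802-5p lies at chr16:93369737-93369758, and miR-127-3p and miR-410-3p at chr12:109592888-109592909 and chr12:109743764-109743784, all on the plus strand.

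The 7 classes together held 26.9 to 78.9 M counts (M for a factor of 1000000) per library, of which 1.02 to 8.33 M were miRNA counts. Levels are given in CPM, which are counts scaled to a total of 1000000 within the RNA class of a library. In 24 libraries the liver label held, with miR-122-5p at 16.2 to 42.6% of miRNA counts and the hepatocyte list of 7 miRNAs at 30.1 to 51.8%. In the other 5 libraries miR-122-5p was under 10%. It took 0.0864% in FL mouse 2 (exact 95% interval 0.0808 to 0.0922), 0.161% in FL mouse 4 (0.154 to 0.169), 0.0396% in HGC mouse 12 (0.0377 to 0.0416), 0.0158% in VGC mouse 12 (0.0142 to 0.0175) and 0.0141% in VGC mouse 14 (0.0131 to 0.0151). These intervals cover the counting error of reads only. None of the 5 libraries had a liver-like miRNA profile, whatever its label. Every comparison below is therefore given over all 29 libraries and over the 24 liver-profile libraries (8 FL, 8 HGC and 8 VGC). No 2 libraries held identical counts, and the correlation of log2 miRNA counts between liver-profile libraries ranged from 0.944 to 0.986. Because these are bulk samples, fewer cells of a type and less RNA per cell cannot be told apart.

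The 5 libraries differed among themselves in the markers they carried. The acinar list (miR-217-5p, miR-216a-5p and miR-216b-5p) took 2.00% of miRNA counts in FL mouse 2 and 2.92% in FL mouse 4, against at most 0.0128% in any liver-profile library. The endocrine list (miR-375-3p, miR-7a-5p and miR-7b-5p) took 4.33 and 9.81% in the same FL mice and at most 0.225% in liver-profile libraries. The epithelial list, the miR-200 family, took 4.93 and 7.84% there and at most 0.129% in liver-profile libraries. HGC mouse 12 was high in the leukocyte list (7.08%, liver-profile libraries at most 0.322%) and in miR-451a of red blood cells (100834 CPM). In VGC mouse 12 the thymocyte list reached 32.3%, against at most 1.27% in liver-profile libraries. VGC mouse 14 was high in the kidney and Hox-locus list (1.63%, liver-profile libraries at most 0.0440%) and the epithelial list (3.47%). The plot of tissue markers sets these libraries beside the rest.

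**Figure D1:**
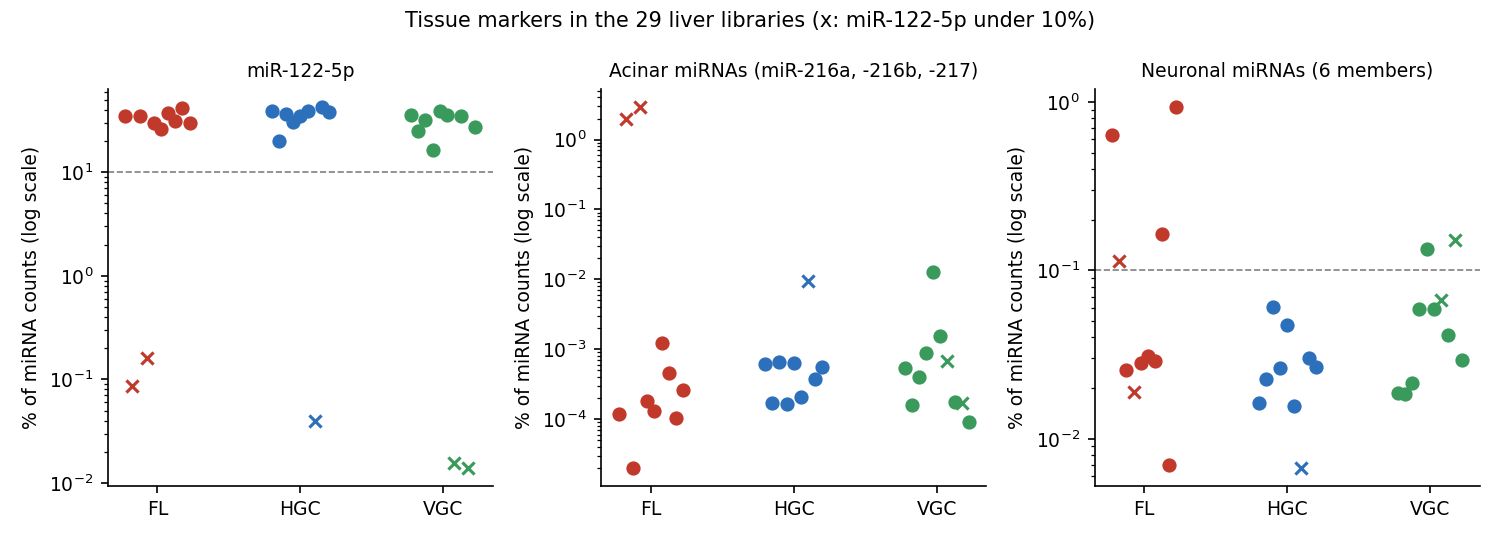
Share of miRNA counts (%, log scale) of miR-122-5p, of the 3 acinar miRNAs and of the 6 neuronal miRNAs in each of the 29 LAR liver libraries, by group, with crosses for the 5 libraries with miR-122-5p under 10% and dashed lines at 10% and 0.1%. The 24 other libraries lie between 16.2 and 42.6% for miR-122-5p, FL mice 2 and 4 lie at 2.00 and 2.92% for the acinar miRNAs, and FL mice 1 and 16 lie highest for the neuronal miRNAs.

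A further set of markers varied within the liver-profile libraries. The neuronal list (miR-124-3p, miR-9-5p, miR-9-3p, miR-128-3p, miR-137-3p and miR-129-5p) took 0.640% of miRNA counts in FL mouse 1, 0.935% in FL mouse 16, 0.166% in FL mouse 13 and 0.134% in VGC mouse 5. The other 20 liver-profile libraries were under 0.1%. miR-124-3p, which is specific to neurons, was at 6988 CPM in FL mouse 16, 5318 in FL mouse 1, 1071 in FL mouse 13 and 893 in VGC mouse 5. Its median was 90.3 in FL, 11.6 in HGC and 44.5 in VGC. Among liver libraries of TERM mice, which were killed on orbit or as their ground controls, FL mice 1 and 16 were also highest, with 1.64 and 0.467%. The comparisons were repeated over the 20 libraries under 0.1% (5 FL, 8 HGC and 7 VGC), a set chosen after the values were seen. It holds fewer FL mice than the others.

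Over all 29 libraries, 54 of 884 miRNAs (6.11%) differed between FL and HGC by edgeR's quasi-likelihood test at an adjusted p under 0.05, 52 of them higher in FL (5.88%). Between FL and VGC 44 differed (4.98%), 29 higher (3.28%) and 15 lower. High counts in 1 library of a group were enough to pass the filter. Some miRNAs thus passed only through the group where they were high, and their direction was fixed by the filter. An example is miR-216a-3p, with 101 and 136 counts in FL mice 2 and 4 and at most 1 elsewhere. With edgeR's own low-count filter 25 were higher and 2 lower against HGC, and 10 and 8 against VGC. The balance of the calls depended on the scaling. With the total of the 7 classes in place of TMM scaling within miRNAs, the median over all miRNAs moved by -0.17 against HGC and -0.41 against VGC, and 22 were called higher and 1 lower against HGC, and 17 higher and 38 lower against VGC. Over the 24 liver-profile libraries 2 of 818 (0.244%) differed from HGC and 0 from VGC, where 133 had an unadjusted p under 0.05 and DESeq2 called 4. The count against HGC depended on the tool here, since DESeq2 called 38, 34 of them higher in FL and 18 of these Dlk1-Dio3 miRNAs. In the 20 libraries 0 of 739 differed in either comparison with edgeR. Unadjusted p was under 0.05 for 52 against HGC and 44 against VGC, and DESeq2 called 1 and 0. The 2 miRNAs called in the liver-profile libraries, miR-7b-5p and miR-153-3p, were also among the 54. Leaving out 1 mouse moved the count of 2 to between 0, without FL mouse 1, and 33, without FL mouse 3, and the count of 54 to between 22, without FL mouse 4, and 67, without FL mouse 5. In each set of libraries 0 miRNAs differed between HGC and VGC with edgeR and TMM scaling. Over all libraries 93 had an unadjusted p under 0.05, DESeq2 called 4, and edgeR with scaling by the total of the 7 classes called 2.

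**Figure D2:**
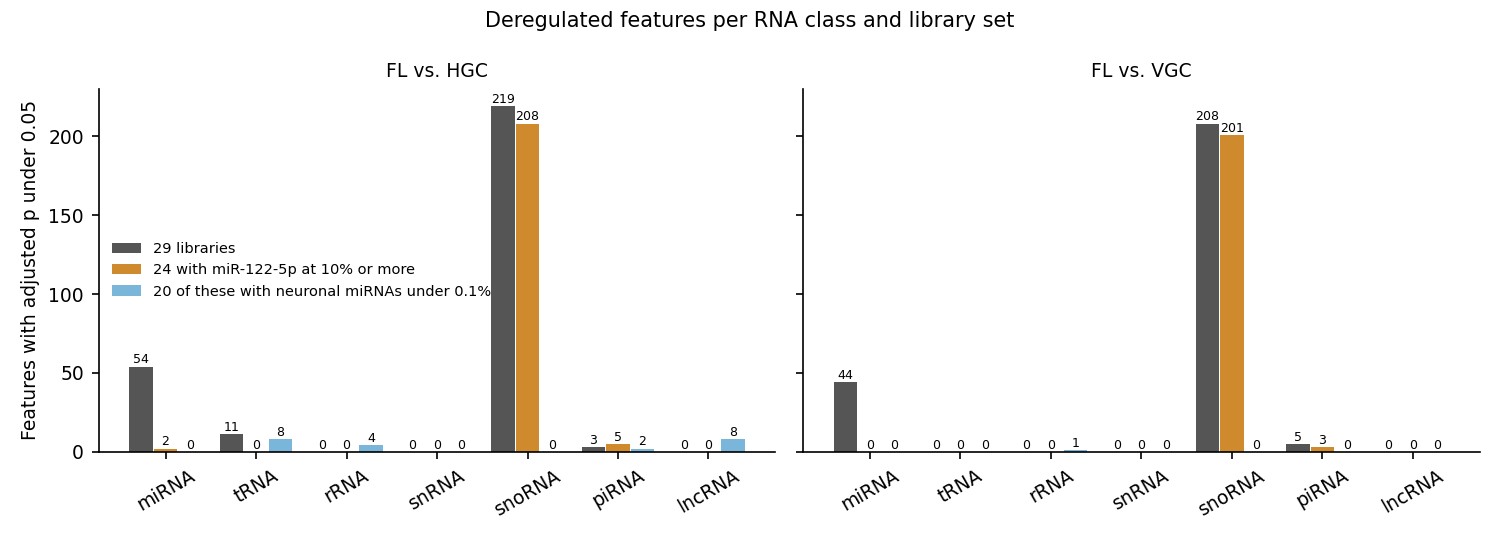
Number of features with an adjusted p under 0.05 (edgeR, either direction) per RNA class for FL vs. HGC (left) and FL vs. VGC (right), in all 29 libraries, the 24 with miR-122-5p at 10% or more, and the 20 of these with neuronal miRNAs under 0.1%. miRNA calls go from 54 to 2 to 0 against HGC, and snoRNA calls from 219 to 208 to 0.

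The liver miRNAs themselves did not pass the test in any set of libraries, with 0 of 7 members of the hepatocyte list called against either control by edgeR or DESeq2. At an unadjusted p under 0.05 there were 0 members over all libraries, and 1 against HGC and 2 against VGC over 24, where 15.6 and 16.3% of all miRNAs tested passed. The median log2 fold change of the list was -0.01 against HGC and 0.21 against VGC over all libraries, beside medians of 0.01 and -0.02 over all miRNAs tested. miR-122-5p ranged from 259046 to 421021 CPM in the 8 liver-profile FL mice (median 330001), from 201066 to 425679 in HGC (375348) and from 162268 to 385883 in VGC (333598). These libraries were chosen by their level of miR-122-5p, so its values there are a description. Over all libraries its log2 fold change was -0.36 ± 0.97 (SE, adjusted p = 0.916, edgeR) against HGC and 0.21 ± 0.94 (adjusted p = 0.957) against VGC. Over the 24 liver-profile libraries miR-192-5p, a p53-responsive miRNA of liver and gut, had medians of 86526 in FL, 87953 in HGC and 84488 in VGC. Its difference from HGC was -0.05 ± 0.16 (adjusted p = 0.969, edgeR). let-7a-5p, miR-26a-5p and miR-22-3p, the other abundant miRNAs, also passed in neither comparison. miR-26a-5p was the furthest from 0, at -0.38 ± 0.15 against HGC (adjusted p = 0.176, edgeR).

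miR-802-5p was somewhat higher in FL in level but did not pass the test. Over all libraries it ranged from 906 to 11913 CPM in FL (median 1815), from 22.9 to 1602 in HGC (1074) and from 4.01 to 1985 in VGC (1003). The highest values were 11913 in FL mouse 4 and 7815 in FL mouse 2, which lacked a liver profile, and the lowest were those of VGC mouse 12 and HGC mouse 12, which lacked it too. In the 24 liver-profile libraries FL ranged from 906 to 2026 (median 1668), HGC from 871 to 1602 (1128) and VGC from 835 to 1985 (1207), so the groups overlapped. The log2 fold change fell from 1.00 ± 0.61 (adjusted p = 0.427, edgeR) to 0.38 ± 0.16 (adjusted p = 0.232) against HGC. Against VGC it went from 1.19 ± 0.59 (adjusted p = 0.265) to 0.38 ± 0.16 (adjusted p = 0.275, edgeR). The opposite arm, miR-802-3p, stood at 0.39 ± 0.24 (adjusted p = 0.493) and 0.54 ± 0.24 (adjusted p = 0.293, edgeR) in the liver-profile libraries.

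The largest miRNA differences of the 29 libraries lay in acinar and endocrine miRNAs and rested on FL mice 2 and 4. miR-217-5p was at 13588 CPM in FL mouse 4 and 9011 in FL mouse 2, while the other 8 FL mice had at most 2.87, the HGC mice 0.487 to 19.2 and the VGC mice 0.448 to 53.0. Only FL mice 2 and 4 stood above the range of the controls. Its log2 fold change was 8.72 ± 2.06 against HGC (adjusted p = 0.0148, edgeR) and 7.53 ± 1.86 against VGC (adjusted p = 0.0165). Over the liver-profile libraries it was -1.12 ± 0.87 (adjusted p = 0.655) and -3.30 ± 0.85 (adjusted p = 0.0881, edgeR), so the direction turned. miR-216a-5p (11990 in FL mouse 4 and 7655 in FL mouse 2) and miR-216b-5p (3615 and 3293) had the same pattern, and all 3 members of the acinar list were called against both controls over 29 libraries and none over 24. miR-375-3p, an islet and neuroendocrine miRNA that limits insulin secretion, was at 90368 in FL mouse 4 and 40496 in FL mouse 2, and at most 29.6 in the other FL mice. It went from 7.71 ± 1.77 (adjusted p = 0.0148) to -0.76 ± 0.60 (adjusted p = 0.668, edgeR) against HGC. miR-200c-3p of the epithelial list was at 42183 and 27869 in FL mice 4 and 2 and at most 167 in the liver-profile FL mice, and 3 of 5 members of that list were called against HGC over 29 libraries (median 3.10), and 0 with the other scaling.

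miR-7b-5p and miR-153-3p were the miRNAs called against HGC with and without the 5 libraries. miR-7b-5p, made in hypothalamus, pituitary and islets, ranged from 2.42 to 780 CPM in FL (median 8.59), from 0.323 to 4.23 in HGC (2.10) and from 0.448 to 9.80 in VGC (2.35). The highest were FL mouse 4 (780), FL mouse 2 (204), FL mouse 16 (47.8) and FL mouse 1 (44.1), and the lower FL mice overlapped both controls. The log2 fold change was 5.02 ± 0.90 (adjusted p = 0.00400, edgeR) against HGC and 4.46 ± 0.84 (adjusted p = 0.00765) against VGC. Over 24 libraries it was 2.91 ± 0.62 (adjusted p = 0.0443) and 2.29 ± 0.60 (adjusted p = 0.0881), and over the 20 libraries 1.58 ± 0.48 (adjusted p = 0.430, edgeR) and 1.38 ± 0.49. miR-153-3p, made in brain and neuroendocrine cells, was at 264 in FL mouse 4, 122 in FL mouse 2, 56.6 in FL mouse 16 and 35.2 in FL mouse 1, with medians of 5.51 in FL, 1.62 in HGC and 1.85 in VGC. It went from 4.09 ± 0.79 (adjusted p = 0.00615) over all libraries to 3.09 ± 0.68 (adjusted p = 0.0443) over 24 and 0.98 ± 0.51 (adjusted p = 0.70, edgeR) over 20 against HGC. Both miRNAs are low in this tissue, with group medians of at most 8.59 CPM.

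The Dlk1-Dio3 miRNAs made up the largest group among the calls. Of 96 mature miRNAs listed from the cluster, 72 passed the filter on low counts, and 21 of them were called higher in FL than in HGC and 14 higher than in VGC, none lower. These were 21 of the 52 and 14 of the 29 miRNAs higher in FL. With the other scaling 5 were called higher against each control. Over the 24 libraries 0 of 71 were called with edgeR, while DESeq2 called 18 higher against HGC and 2 against VGC. In the 20 libraries 47 members passed the filter. The other 25 of the 72 thus passed it only with libraries that are not among the 20, and no count or median over the 72 supports a difference of the cluster. The 47 had medians of 1.53 against HGC and 1.47 against VGC over all libraries, with 17 and 12 called higher, of 1.27 and 1.01 over 24 and of -0.08 and -0.01 over 20.

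The members of the cluster had their high values in the same 4 FL mice. miR-127-3p, which lies antisense to the imprinted gene Rtl1, ranged from 35.5 to 1920 CPM in FL (median 109), from 33.5 to 176 in HGC (54.3) and from 29.1 to 403 in VGC (71.4). FL mouse 2 had 1920, FL mouse 4 had 1067, FL mouse 1 had 891 and FL mouse 16 had 809, and the remaining FL mice lay within the control range. The log2 fold change was 2.34 ± 0.54 (adjusted p = 0.0148, edgeR) against HGC and 1.92 ± 0.51 (adjusted p = 0.0247) against VGC. It was 2.01 ± 0.53 (adjusted p = 0.0560) against HGC over 24 libraries and 0.29 ± 0.30 (adjusted p = 0.947, edgeR) over 20. miR-369-5p was at 244 in FL mouse 16, 165 in FL mouse 4, 142 in FL mouse 1 and 112 in FL mouse 2, against at most 30.4 in HGC and 65.9 in VGC. miR-410-3p, at 11.6 CPM or less in every library, had a log2 fold change of 3.27 ± 0.78 against HGC (adjusted p = 0.0148, edgeR) and 2.30 ± 0.70 against VGC (adjusted p = 0.0480). miR-341-3p, miR-136-5p, miR-136-3p, miR-369-3p, miR-376a-3p, miR-300-3p and miR-380-3p were called against both controls with log2 fold changes of 1.75 to 2.76. FL mice 1 and 16 are those with the highest neuronal list, and FL mice 2 and 4 those with the acinar miRNAs. The part of these RNAs in the cluster's difference was not tested beyond the repeat without them.

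**Figure D3:**
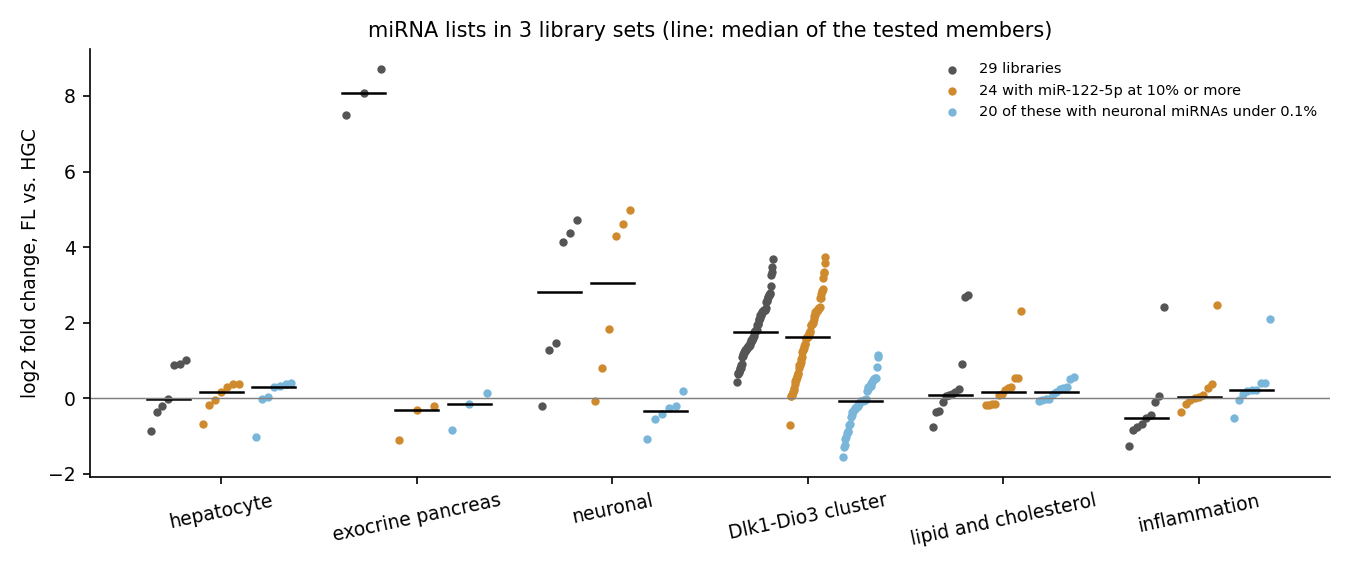
log2 fold change of FL vs. HGC (y axis) for each member of 6 miRNA lists that passed the filter on low counts in the 3 sets of libraries, with a line at the median of the members. The Dlk1-Dio3 cluster is shown by 72 members over 29 libraries (median 1.76), 71 over 24 (1.63) and 47 over 20 (-0.08), the last set being chosen by the neuronal list, which is drawn as well, and that of the exocrine pancreas (acinar) list goes from 8.07 to -0.32 to -0.14.

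Neuronal miRNAs were higher in FL than in HGC over all libraries for 2 of 6 members (list median 2.80), miR-9-5p at 4.38 ± 1.14 (adjusted p = 0.0190, edgeR) and miR-9-3p at 4.73 ± 1.2 (adjusted p = 0.0185). miR-9-5p ranged from 2.23 to 1615 in FL, from 2.42 to 23.4 in HGC and from 3.13 to 1397 in VGC, where VGC mouse 14 had 1397. None of the 6 was called against VGC (median 0.94). miR-124-3p had a log2 fold change of 4.14 ± 1.48 (adjusted p = 0.102, edgeR) against HGC. Over the 24 libraries edgeR called none and DESeq2 called 4 of them higher against HGC, among them miR-124-3p (4.32 ± 1.27, adjusted p = 0.0260). The 20 libraries were chosen by this list and give no test of it.

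The other markers of other cell types gave few calls. In the striated muscle list 1 of 7 was lower in FL than in HGC (median -1.82 against HGC and -1.25 against VGC), miR-206-3p of skeletal muscle at -3.49 ± 0.99 (adjusted p = 0.0299, edgeR). At an unadjusted p under 0.05, 4 of the 7 had lower levels in FL than in HGC over all libraries and 6 over 24 (median -2.13), and DESeq2 called 3 and 2 of the 7. Of all miRNAs tested, 18.1 and 15.6% passed that threshold against HGC in either direction. miR-206-3p was at 768 CPM in HGC mouse 1, 362 in HGC mouse 4 and 252 in HGC mouse 14, at most 73.2 in FL, and at a median of 10.7 in HGC and 11.7 in FL. The call thus came with high values in 3 HGC mice, and it was not made over 24 libraries (adjusted p = 0.0756). The only other miRNA lower in FL than in HGC, miR-191-5p, which is widely expressed, ranged from 4138 to 15755 in FL and from 6782 to 25463 in HGC (-0.64 ± 0.17, adjusted p = 0.0256, edgeR). It stood at -0.51 ± 0.15 (adjusted p = 0.0614) over 24 libraries, where DESeq2 called it (-0.50 ± 0.15, adjusted p = 0.0319). Against VGC, 4 of 5 members of the thymocyte list were lower in FL (median -2.82), among them miR-181a-5p, at 319570 in VGC mouse 12. In the kidney and Hox-locus list 2 of 4 were lower (median -3.37), among them miR-196a-5p, at 3386 in VGC mouse 14 and at most 72.6 elsewhere. DESeq2 called 0 members of both lists against VGC over all libraries. Both lists gave no call over 24 libraries with edgeR, and DESeq2 called 1 miRNA of the kidney and Hox-locus list lower in FL than in HGC there. The endocrine list had 2 of 3 higher against each control. Leukocyte, erythroid, stellate and smooth muscle, endothelial, brown adipose and ciliated epithelium lists had 0 called in any set with edgeR (over all libraries 2 leukocyte and 1 stellate miRNA had an unadjusted p under 0.05 against HGC and 3 ciliated miRNAs against VGC, of which DESeq2 called 2 and edgeR with the other scaling 3), with medians from -0.79 to 0.41 against HGC and from -1.88 to 0.22 against VGC over all libraries. Together, 31 of the 52 miRNAs higher in FL than in HGC belonged to the Dlk1-Dio3, neuronal, acinar, endocrine or epithelial lists. Against VGC these lists held 19 of the 29. In that order they had 72, 6, 3, 3 and 5 tested members. Of all 884 miRNAs tested, 5.88 and 3.28% were higher in FL. All these lists had calls higher in FL than in HGC, and they came from 14 marker and 11 pathway lists chosen with earlier results known. Of the 72 Dlk1-Dio3 members, 25 did not pass the filter in the libraries under 0.1% of neuronal miRNAs. The pooled counts are therefore a description.

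Lists tied to liver metabolism and stress held few calls over all libraries and none over the 24 with edgeR, where DESeq2 called miR-33-5p (0.57 ± 0.18, adjusted p = 0.0340) and miR-30a-5p (0.60 ± 0.20, adjusted p = 0.0476) higher in FL than in HGC. miR-33-5p lies in an intron of Srebf2 and lowers cholesterol export through Abca1. In the lipid and cholesterol list of 12, the miRNA called higher than in HGC was miR-96-5p (2.67, adjusted p = 0.0190, edgeR), transcribed with miR-182 and miR-183, and the one called higher than in VGC was miR-758-3p (4.55, adjusted p = 0.0247), a Dlk1-Dio3 member described as a regulator of Abca1. The list's medians were 0.09 and 0.20. In the glucose and insulin list of 9, only miR-375-3p was called (medians -0.12 and 0.15). The p53 and DNA damage list (11 miRNAs, medians -0.03 and -0.05), the fibrosis and matrix list (11, -0.03 and 0.00), the inflammation list (9, -0.53 and -0.20) and the let-7 family (9, -0.14 and -0.07) had 0 called against either control with edgeR, and DESeq2 called 2 of the p53 list lower against VGC. At an unadjusted p under 0.05 they had 0 and 2, 1 and 0, 3 and 0, and 0 and 0 members against HGC and VGC. The miR-30 family had 0 of 7 (0.05 and 0.03), with 0 at an unadjusted p under 0.05, and of 2 hypoxia miRNAs 1 was tested and not called (-0.06 and -0.02). In the miR-17-92 cluster and its paralogues 0 of 13 were called against HGC (median -0.31), and 3 were lower against VGC (median 0.01), miR-106a-5p, miR-20b-5p and miR-363-3p of the X-linked paralogue, which are also thymocyte markers, while DESeq2 called 0 of them. The imprinted cluster in an intron of Sfmbt2 had 0 of 67 called (medians -0.94 and -0.56), with 13 and 12 lower in FL at an unadjusted p under 0.05. This is near the share over all miRNAs tested, of which 18.1 and 19.1% passed that threshold in either direction. It is no result about the 67. With the other scaling 3 of these 67 and 2 of the p53 list were called lower against VGC.

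snoRNAs gave more calls than any other class. Over all libraries 219 of 729 (30%) differed between FL and HGC and 208 (28.5%) between FL and VGC, 215 (29.5%) and 204 (28%) of them higher in FL. Over the 24 liver-profile libraries 208 of 721 (28.8%) and 201 (27.9%) differed, of which 206 and 200 were also called over 29. Nearly all lay in 1 place. The interval on chromosome 7 from Ube3a to Snrpn held 209 of the 1424 snoRNA entries with counts in any LAR or TERM liver library. Of the 209, 208 were tested, and 202 were higher in FL against each control over 29 libraries, and 198 and 197 over 24. The median log2 fold change of the 208 was 3.07 against HGC and 3.01 against VGC, beside 0.05 and 0.07 over all snoRNAs. These entries are not separate measurements. The 209 held 86 different sets of counts, because a read was counted in full at every identical copy. With identical entries merged, 83 and 80 snoRNAs were called over 29 libraries. The groups were spread unevenly over the preparation plates, and with plate as a covariate 0 were called against either control.

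The interval is shown by an entry of each array, with sequences from the GENCODE M21 transcripts (GRCm38, minus strand, 5′ to 3′) and the C box TGATGA and D box CTGA in capitals. They were chosen after their values were seen. Gm25098, of 79 bases, the length of 130 of the 209 entries, lies at chr7:59492432-59492510, and Snord116l13, of 94 bases, as 68 of the entries, at chr7:59874380-59874473.
Gm25098: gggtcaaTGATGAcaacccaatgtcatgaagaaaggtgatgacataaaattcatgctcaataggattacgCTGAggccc
Snord116l13: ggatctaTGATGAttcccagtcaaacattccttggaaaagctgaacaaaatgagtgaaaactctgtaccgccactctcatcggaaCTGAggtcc

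TGATGA and CTGA, searched on the transcript strand, both occurred in 203 of the 209 entries (97.1%) and in 14.3% of the 1182 other snoRNA entries with a sequence. Gm25098 ranged from 7.67 to 1190 CPM in FL (median 36.9), from 0.307 to 36.7 in HGC (14.0) and from 6.33 to 108 in VGC (17.5). FL mouse 16 had 1190, FL mouse 1 had 818, FL mouse 13 had 122 and VGC mouse 5 had 108, and the other 7 FL mice lay within the range of VGC. Its log2 fold change was 3.65 ± 0.84 (adjusted p = 0.00262, edgeR) against HGC and 3.02 ± 0.78 (adjusted p = 0.00974) against VGC. It was -0.17 ± 0.38 and -0.25 ± 0.39 over the 20 libraries. Snord116l13 was at 92.6 in FL mouse 16 and 47.5 in FL mouse 1, with medians of 5.58 in FL, 3.45 in HGC and 3.95 in VGC. It had a log2 fold change of 2.24 ± 0.58 (adjusted p = 0.00420, edgeR) and 1.76 ± 0.55 (adjusted p = 0.0141). Gm22834, Gm23254, Gm23310, Gm24862, Gm25461 and Gm25194 of the same interval were highest in FL mice 16 and 1 too, with log2 fold changes of 3.48 to 3.70 against HGC. Gm23310, Gm24862 and Gm25461 held the same counts.

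With each identical entry counted once, the whole interval took 16387 CPM in FL mouse 16, 10632 in FL mouse 1, 1996 in FL mouse 13 and 1887 in VGC mouse 5, and 53.1 to 1626 in the other 25 libraries. The median was 995 in FL, 578 in HGC and 826 in VGC. The 4 highest libraries were those with the neuronal miRNA list above 0.1% among the liver-profile libraries. FL mouse 2 followed with 1626 and FL mouse 4 with 1131, both without a liver profile. In the 20 libraries, which leave out these 2 mice too, the interval ranged from 486 to 860 in FL (median 654), from 470 to 1092 in HGC (625) and from 456 to 1113 in VGC (805), with FL inside the range of the controls. There 0 of 693 snoRNAs were called with edgeR or DESeq2 against either control, 20 and 16 had an unadjusted p under 0.05, and the interval's medians were -0.17 and -0.25. The 20 libraries leave out the 4 highest for the interval, so they give no test of it. Leaving out FL mouse 16 alone took the calls over 29 libraries from 219 to 165 against HGC and from 208 to 0 against VGC. Over 24 libraries 49 were called against HGC without it, and 0 against VGC without FL mouse 1 or without FL mouse 16.

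**Figure D4:**
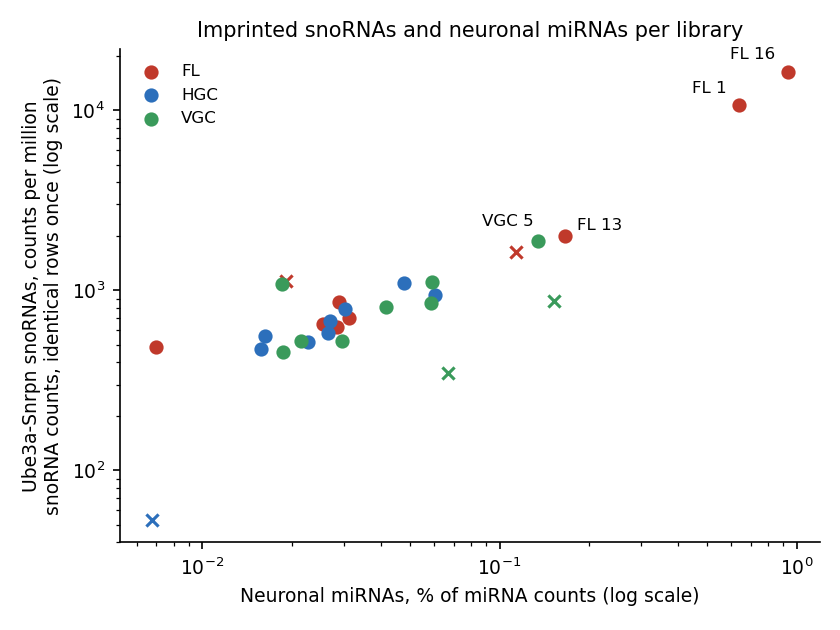
Level of the snoRNAs between Ube3a and Snrpn in CPM, identical entries once (y axis, log scale), against the neuronal miRNA list as % of miRNA counts (x axis, log scale) in the 29 LAR liver libraries, colored by group, with crosses for libraries with miR-122-5p under 10%. FL mice 16 and 1 lie at 16387 and 10632 with 0.935 and 0.640%, and FL mouse 13 and VGC mouse 5 lie next with 1996 and 1887.

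Few snoRNAs outside this interval were called. The snoRNAs between Meg3 and Mirg on chromosome 12, in the Dlk1-Dio3 region, had 5 of 14 higher in FL than in HGC and 1 higher than in VGC, where 29.5 and 28% of all snoRNAs were. Most of that background is the interval on chromosome 7 itself. Of the 521 snoRNAs tested outside it, 13 (2.5%) were higher than in HGC and 2 (0.384%) higher than in VGC. The following were named after their values were seen. DQ267101 of this group was at 0.208 to 4.58 CPM in FL (median 2.82), 0.250 to 1.46 in HGC (0.602) and 0.000 to 2.33 in VGC (0.596). Its log2 fold change was 1.58 ± 0.53 (adjusted p = 0.0206, edgeR) and 1.5 ± 0.51 (adjusted p = 0.0239), and 1.5 ± 0.48 (adjusted p = 0.0188) and 1.65 ± 0.48 (adjusted p = 0.0221) over 24 libraries. In the 20 libraries it was 1.15 ± 0.58 (adjusted p = 0.931, edgeR) and 1.46 ± 0.61 (adjusted p = 0.976). Snora35, an H/ACA snoRNA in an intron of the serotonin receptor gene Htr2c, was at 3.08 in FL mouse 16, 2.01 in FL mouse 1, 0.644 in VGC mouse 5 and 0.000 in every HGC library. Snord82 was lower in FL than in VGC (-0.85 ± 0.26, adjusted p = 0.0141, edgeR), with 2333 in VGC mouse 12 and 1963 in VGC mouse 5 and medians of 502 in FL and 619 in VGC. Gm25483 was lower in FL than in HGC (-0.86 ± 0.33, adjusted p = 0.0436), at a median of 0.647 against 1.33. Over 24 libraries Snord66 (-0.52 ± 0.17, adjusted p = 0.0251) and Snord123 (-0.47 ± 0.17, adjusted p = 0.0441, edgeR) were lower in FL than in HGC. The most abundant snoRNA, Gm26109, had medians of 58090 in FL, 59940 in HGC and 50829 in VGC and did not pass (0.02 ± 0.28 and 0.09 ± 0.27).

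Piwi-interacting RNAs (piRNAs) guard the germ line against transposons, and counts assigned to them in somatic tissue can also come from fragments of other small RNAs. In the liver 3 of 720 entries (0.417%) differed between FL and HGC and 5 (0.694%) between FL and VGC. Over 24 libraries 5 of 695 (0.719%) and 3 (0.432%) differed. 3 entries were lower in FL in all 4 of these comparisons, oocyte_piRNA3081, piR-1076 and piR-1093. They rose and fell together. The ratio of oocyte_piRNA3081 to piR-1093 counts was 0.571 to 0.930 over the 29 libraries (median 0.788) and that of piR-1076 to piR-1093 was 0.60 to 0.895 (median 0.813), so they cannot be counted as 3 separate results.

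oocyte_piRNA3081 ranged from 30.8 to 106 CPM in FL (median 55.0), from 48.7 to 1927 in HGC (361) and from 115 to 4459 in VGC (259). No FL mouse reached the lowest VGC mouse, and against HGC only HGC mouse 14 (48.7) and HGC mouse 4 (76.0) overlapped FL. The log2 fold change was -2.44 ± 0.54 (adjusted p = 0.0412, edgeR) against HGC and -2.70 ± 0.54 (adjusted p = 0.00893) against VGC. Leaving out 1 mouse gave -2.65 to -2.10 against HGC, where the call was lost for 13 of the 29 mice (adjusted p up to 0.142), and -2.83 to -1.77 against VGC, where it was lost for none. Over 24 libraries it was -2.31 ± 0.42 (adjusted p = 0.00239) and -1.90 ± 0.42 (adjusted p = 0.0397, edgeR). Leaving out 1 of the 24 lost the call against HGC for none and that against VGC for 11, among them FL mouse 1 (adjusted p up to 0.114), and with edgeR's own low-count filter 0 piRNAs were called against VGC. In the 20 libraries it stood at -2.24 ± 0.52 (adjusted p = 0.0438, edgeR) and -1.77 ± 0.52 (adjusted p = 0.30), and here 2 of 618 piRNAs (0.324%) were called against HGC, this one and piR-984, and 0 against VGC with edgeR or DESeq2, with 47 at an unadjusted p under 0.05. The call of oocyte_piRNA3081 against HGC in the 20 libraries was lost with DESeq2, which called 0, with a robust fit, which called 1, and on leaving out 1 mouse for 11 of the 20. oocyte_piRNA3081 was thus lower in FL in value in each set of libraries. piR-1076 went from -2.33 ± 0.54 (adjusted p = 0.0412) to -2.18 ± 0.41 (adjusted p = 0.00245, edgeR) against HGC. piR-1093 went from -2.10 ± 0.51 (adjusted p = 0.0495) to -1.96 ± 0.39 (adjusted p = 0.00369).

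The libraries were prepared on 8 plates, given in the metadata of the study, and the groups were spread unevenly over them. FL mice were on plates 1, 2, 5, 6 and 8. On plate 1 oocyte_piRNA3081 was at 30.8 to 106 in 3 FL mice, 265 to 1927 in 2 HGC mice and 249 to 4459 in 2 VGC mice. The liver-profile libraries of this plate had 106 in FL mouse 13, 265 in HGC mouse 5 and 249 in VGC mouse 11. On plate 2 it was 56.8 in the FL mouse, 475 in the HGC mouse and 168 in the VGC mouse, and on plate 8 it was 52.8 in FL and 385 in HGC. On plate 5 the 4 FL mice had 42.0 to 103, the HGC mouse 76.0 and the VGC mouse 210. FL was thus below the controls on plates 1, 2 and 8, and overlapped the HGC mouse on plate 5. Plates 3 and 4 held 9 control mice and no FL mouse. With plate as a covariate 0 piRNAs were called, as in every other class.

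The same entry was compared with the TERM livers, a comparison chosen after the data were seen. In TERM it was at 153 to 1011 in FL, 109 to 4274 in HGC and 51.9 to 823 in VGC, and FL did not differ by the test from HGC (-0.24, adjusted p = 0.899, edgeR) or VGC (1.03, adjusted p = 0.557). The difference between the FL effect in LAR and that in TERM was -2.31 ± 0.74 (adjusted p = 0.291, edgeR) against HGC and -3.79 ± 0.76 (adjusted p = 0.00284) against VGC. Over liver-profile libraries it was -1.95 (adjusted p = 0.450) and -3.21 ± 0.72 (adjusted p = 0.0146). LAR and TERM mice differed in the return to Earth with its re-entry, which only the FL mice of LAR went through, in time of death, in the freezing of fresh lobes or whole carcasses and in time on orbit, which cannot be told apart.

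**Figure D5:**
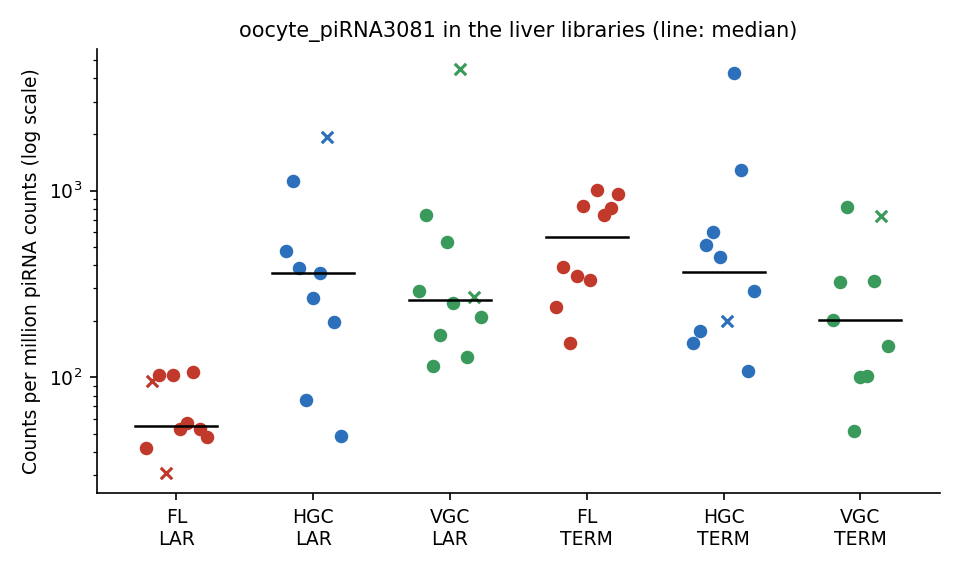
oocyte_piRNA3081 in CPM (y axis, log scale) in each liver library by group, for LAR and TERM mice, with crosses for libraries with miR-122-5p under 10% and lines at the medians. The 10 FL LAR mice lie between 30.8 and 106, below all VGC LAR mice and 7 of the 9 HGC LAR mice, and the FL TERM mice lie between 153 and 1011.

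The remaining piRNA calls were named after their values were seen. piR-984 was higher in FL than in HGC over 24 libraries (1.49 ± 0.36, adjusted p = 0.0324, edgeR), at 180 to 1664 in FL (median 389), 156 to 268 in HGC (234) and 139 to 380 in VGC (273). All liver-profile FL mice but FL mouse 13 (180) were above the highest of these HGC mice, and FL mouse 11 was highest with 1664. Leaving out 1 of the 24 lost the call for 12, and without FL mouse 11 it stood at 0.73 (adjusted p = 0.312, edgeR). In the 20 libraries it was 1.74 ± 0.35 (adjusted p = 0.0119), a call lost only without FL mouse 11 (0.81, adjusted p = 0.378), and DESeq2 gave it no adjusted p there. It was not called over 29 libraries (1.28 ± 0.37, adjusted p = 0.166, edgeR) or against VGC with edgeR, where DESeq2 called it over 29 and over 24 libraries. piR-300 was also higher there (2.87 ± 0.65, adjusted p = 0.0160), at 2338 in FL mouse 16 and 1083 in FL mouse 1 and at a median of 113 in FL and 80.6 in HGC. Its counts were 1.2 to 1.57 times those of miR-138-5p in the 29 libraries (median 1.37). Among the 20 libraries piR-300 stood at -0.25 ± 0.35. oocyte_piRNA2697 was higher in FL than in VGC over 29 libraries (1.99 ± 0.48, adjusted p = 0.0253, edgeR), at 38814 in FL mouse 4 and 17347 in FL mouse 2, and 0.04 ± 0.19 over 24. oocyte_piRNA659 was lower (-2.39 ± 0.56, adjusted p = 0.0253), at 3297 in VGC mouse 14, and -0.62 ± 0.29 over 24.

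Transfer RNA (tRNA) reads, mostly fragments at this length, differed for 11 of 404 entries (2.72%) between FL and HGC over all libraries, and for 0 against VGC, where 56 had an unadjusted p under 0.05 and DESeq2 called 1. The 11 calls were lost with scaling by the total of the 7 classes and on leaving out 1 mouse for 11 of the 29 mice, among them FL mouse 1. The 6 lower in FL were all tRNA-Arg-ACG entries (6 of 24 Arg entries), with log2 fold changes of -1.38 to -1.52, and the 5 higher were all tRNA-Ser-GCT entries (5 of 22 Ser entries). Copies with the same sequence hold the same reads, which made up 77.7% of tRNA counts, so entries of 1 isodecoder are not separate measurements. tRNA-Arg-ACG-3-1 ranged from 44.7 to 329 CPM in FL (median 94.6), from 41.0 to 1070 in HGC (314) and from 34.8 to 709 in VGC (225). The groups overlapped. The difference was -1.45 ± 0.38 (adjusted p = 0.0287, edgeR) against HGC and -1.12 ± 0.37 (adjusted p = 0.138) against VGC, and -1.15 ± 0.42 (adjusted p = 0.164) against HGC over 24 libraries. tRNA-Ser-GCT-4-1 had a median of 150 in FL and 99.2 in HGC (0.73 ± 0.20, adjusted p = 0.0287, edgeR) and stood at 0.61 ± 0.19 (adjusted p = 0.137) over 24. Over 24 libraries 0 tRNA entries were called with edgeR, with 51 and 38 at an unadjusted p under 0.05, and DESeq2 called 19 against HGC and 0 against VGC. Among the 20 libraries 8 of 402 (1.99%) were called against HGC, none of them among the 11, and 0 were called on leaving out 1 mouse for 17 of the 20. They were 6 lower, among them, named after its value was seen, tRNA-Lys-TTT-1-1 (-0.75 ± 0.19, adjusted p = 0.0306, edgeR), and 2 higher, among them tRNA-Leu-AAG-2-1 (0.59 ± 0.15, adjusted p = 0.0306).

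Ribosomal RNA (rRNA), small nuclear RNA (snRNA) and long noncoding RNA (lncRNA) gave 0 calls over 29 and over 24 libraries with edgeR. Over 29 libraries 18 and 19 rRNA, 9 and 118 snRNA and 276 and 307 lncRNA entries had an unadjusted p under 0.05 against HGC and VGC, and DESeq2 called 39 rRNA and 20 lncRNA entries against HGC and 0 of all 3 classes against VGC. Over 24 they were 10 and 18, 8 and 130, and 234 and 247, with 8 lncRNA calls by DESeq2 against HGC and 0 elsewhere. CT010467.1, the most abundant rRNA entry, ranged from 76041 to 519207 CPM in FL (median 151296), from 82698 to 163447 in HGC (131426) and from 70129 to 162282 in VGC (122838), with the 519207 in FL mouse 11. It stood at 0.95 ± 0.30 (adjusted p = 0.246, edgeR) and 0.93 ± 0.29 (adjusted p = 0.381). Among the 20 libraries, where the entries were named after their values were seen, 4 of 213 rRNA entries (1.88%) were higher in FL than in HGC, CT010467.1 (1.10 ± 0.27, adjusted p = 0.0146), Gm24647, Gm25974 and Gm23757, the last 3 with FL mouse 14 highest, and 1 (0.469%), Gm24647, higher than in VGC. DESeq2 called 0 of them. The lncRNA entries with the smallest p held the counts of miRNAs and are not separate results. The entry of Mirg, the host transcript of Dlk1-Dio3 miRNAs, with the smallest p against HGC (3.24 ± 0.68, adjusted p = 0.0663, edgeR) held 210 counts in the 29 libraries, where miR-410-3p held 196, and they differed by at most 3 counts in a library. Mir205hg, the host gene of the epithelial miR-205, with the smallest p against VGC (-4.80 ± 0.97, adjusted p = 0.0552), held 69538 counts, where miR-205-5p held 69469, 55131 and 55087 of them in VGC mouse 12. Over the 20 libraries 8 of 2984 lncRNAs (0.268%) were higher in FL than in HGC and 0 against VGC, where 171 had an unadjusted p under 0.05. A robust fit called 0 against HGC there and DESeq2 14. The snRNA entries with the smallest p, Gm22956 against HGC and Gm23686 against VGC, had adjusted p of 0.765 and 0.269.

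The share of each class in the total did not differ by the test. miRNAs took 10.4 ± 4.80% of the counts in FL (SD, n = 10), 12.6 ± 2.67% in HGC (n = 9) and 12.7 ± 3.28% in VGC (n = 10). rRNA took 24.9 ± 10.3% in FL, 20.4 ± 4.42% in HGC and 19.3 ± 5.08% in VGC. Repeated copies held 72.2% of rRNA counts, and with identical entries counted once rRNA took 11.9, 8.33 and 7.91% and miRNA 15.9, 19.2 and 19.7% (smallest of these 14 exact permutation p = 0.0228, for rRNA against VGC, adjusted p = 0.311). Of 14 two-sided exact permutation tests with every entry counted, the smallest p was 0.0656, for piRNA against VGC (2.86 ± 0.770% in FL and 2.28 ± 0.510% in VGC), and the smallest adjusted p was 0.554.

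Age and mission end were set against the flight effect. Each age held 4 or 5 mice of a group over 29 libraries, and often fewer in the smaller sets, so a dependence on age could be missed. The difference of FL from HGC was called as dependent on age for 0 miRNAs in each of the 3 sets of libraries (edgeR, 44 at an unadjusted p under 0.05 over 29 libraries). Between LAR and TERM livers it differed for 7 of 954 miRNAs (0.734%) over all liver libraries, miR-375-3p, miR-217-5p, miR-216a-5p, miR-216b-5p, miR-6969-3p, miR-200c-3p and miR-582-3p, most of them acinar, endocrine or epithelial miRNAs with their LAR highs in FL mice 2 and 4. The difference from VGC changed between them for 8 of 954. Over liver-profile libraries 0 of 873 did in either comparison with edgeR, with 41 and 44 at an unadjusted p under 0.05.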

How the data were processed

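Small RNA was sequenced by the study from liver of 29 LAR mice, with 1 library per mouse. Per its methods, reads of an MGIEasy small RNA library sequenced as single ends on a BGISEQ instrument were mapped and counted with miRMaster against miRBase and other small RNA annotations, with GRCm39 as the genome build in the labels. The authors deposited raw counts of reads per feature for tRNA, rRNA, snRNA, snoRNA, piRNA and lncRNA, in which a read was counted in full at every identical copy. The deposited miRNA values are estimated counts, of which 0.795% in the 29 libraries had a fraction, and they were rounded to whole numbers. The deposited tables of 2 further classes were not used, and 628 columns of other samples in each table were left out.

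Groups came from the labels. Features with 5 or more counts in at least 10% of the libraries of any group were tested. Levels are CPM within the class of a library, with no pseudocount. FL, HGC and VGC were fitted together per class with edgeR 4.0.16 (TMM scaling, quasi-likelihood F-test, Benjamini-Hochberg adjustment over all features of the class, threshold 0.05) in R 4.3.3, and the SE was taken from the log2 fold change and its F. The fits were tested on simulated counts. DESeq2 1.42.0 was the other tool, and shares of counts were compared by exact permutation. Age and TERM were set against flight by interaction terms. Tables and plots were made with Python 3.11.15.

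Named miRNAs were list members, miR-802, the 8 with the smallest p among the calls of each comparison and those called in both. In the other classes they were the 3 with the smallest p among the calls, or the 1 with the smallest p where there was none. The 5 most abundant features of each class were read too. The 14 marker lists and 11 pathway lists, like the choice of libraries and of the comparison itself, were chosen with earlier results of these data known. Alternatives were another scaling, another filter, DESeq2, age or plate as a covariate, the replicate number as a block, only the groups compared, merged identical entries and leaving out each mouse. The libraries under 0.1% of neuronal miRNAs, and the piRNA comparison with TERM, were added after the data were seen. Total counts per library set the precision, and miRNA counts were lowest in FL mice 2 and 4, at 1.04 and 1.02 M. Per-plate values use the plate given in the metadata of the study.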

Additional observations from a re-analysis of the deposited data

Results flagged for a closer look

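Single mice stood apart from the other 7 of their group among the liver-profile libraries in 13 of 72 group and measure pairs, by the gap of the highest or lowest value to its nearest neighbor (Dixon's ratio above 0.526). Chance alone gives about 5 percent where values are normally distributed. The shares and levels were not transformed, and their distribution was not tested, so the 13 pairs are a description. The pairs share mice, so they are not independent.

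VGC mouse 5 stood apart in 4 measures. tRNA took 31.0% of its counts (group median 7.37%), the neuronal list 0.134% of miRNA counts (0.0354%), the acinar list 0.0128% (0.000468%), and the snoRNAs between Ube3a and Snrpn 1887 CPM (826). It is also the VGC mouse left out of the set of 20 libraries.

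VGC mouse 3 stood apart in 3 measures, the epithelial list at 0.129% (group median 0.0740%), the thymocyte list at 1.27% (0.254%) and the ciliated epithelium list at 0.0121% (0.00131%). The striated muscle list was high in FL mouse 5 at 0.272% (0.0595%) and in HGC mouse 4 at 1.30% (0.0628%). FL mouse 12 was high in the acinar list at 0.00123% (0.000157%), and HGC mouse 14 in the kidney and Hox-locus list at 0.0249% (0.00444%). Of the shares of RNA classes, snoRNA was low in FL mouse 14 at 13.7% (23.0%) and piRNA high in FL mouse 11 at 3.76% (2.47%). What sets these mice apart was not tested.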

How the results depend on the processing

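Against HGC (54 miRNA calls), 23 miRNAs were called when scaling by the total of the 7 classes, all among the 54, 27 (26 of the 54) with edgeR's own low-count filter, 16 with only both compared groups in the fit, 6 with the effect-size rule of the study, and 0 with plate as a covariate or an exact permutation rank-sum test. Against VGC (44), 18 were called with the filter (17 of the 44), 55 with the other scaling (32 of the 44), 29 with age as a covariate, 6 with the rule of the study, and 0 with plate, the 2 groups alone or the rank-sum test. Over 24 libraries 2 were called against HGC, also with the other scaling or filter, and 0 against VGC, also with these, while DESeq2 gave 4 there. Over 20 libraries 0 were called in both, also with a robust fit, with 1 and 0 by DESeq2. The tRNA calls against HGC (11) went to 0 with the other scaling, plate or 24 libraries (there also with the other scaling or filter), and to 19 with DESeq2 over 24, and DESeq2 called 1 against VGC. rRNA calls against HGC went from 0 to 39 with DESeq2 and to 4 over 20 libraries (1 with a robust fit), and against VGC to 1 over 20. snoRNA calls (219 and 208) went to 0 with plate and over 20 libraries, with a robust fit or DESeq2 too, and to 83 and 80 with identical entries merged. piRNA calls (3 and 5) went to 0 with plate, to 5 and 3 over 24 libraries (5 and 3 with the other scaling, 5 and 0 with the filter, 5 and 14 with DESeq2), to 1 and 0 over 20 with a robust fit and to 0 and 0 with DESeq2, and DESeq2 called 26 against VGC over 29. lncRNA calls (0) went to 20 with DESeq2, 8 over 20 libraries, 8 and 14 with DESeq2 over 24 and 20, and 1 against VGC with the other scaling. The LAR and TERM difference in miRNAs (7) went to 0 over the liver-profile libraries of LAR and TERM and over those of them under 0.1% of neuronal miRNAs. The other scaling moved the median over all features by 0.23 for tRNA and -0.22 for lncRNA against HGC and by 0.12, 0.11 and -0.29 for tRNA, rRNA and lncRNA against VGC, and turned the median of the epithelial list against VGC from 0.95 to -0.63, that of the hepatocyte list from 0.21 to -0.03 and those of other lists close to 0. The causes were not tested, and the smaller sets hold fewer mice by construction.

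The mice of a replicate number were different animals. Over all libraries 28 same-number pairs had a median correlation of deviations of 0.0355, with 11 above 0.1, beside a median of 0.0383 for other pairs. A median cannot show that a number shares nothing, and FL mice 1 and 16 were highest for the neuronal list in LAR and in TERM. With the replicate block there were 0 calls in miRNA, tRNA and snoRNA and 3 in piRNA against each control. Over 24 libraries the replicate block gave 0 miRNA, tRNA and snoRNA calls and 0 piRNA calls against VGC, and 4 of 29 libraries were closest to one of their own number.

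Over all 3 sets of libraries, leaving out 1 mouse gave 0 to 67 miRNA calls against HGC and 0 to 55 against VGC, 0 to 19 for tRNA against HGC (0 to 12 over 29 libraries), 0 to 4 and 0 to 40 for rRNA, 0 to 84 for snRNA against VGC, 0 to 227 and 0 to 221 for snoRNA, 0 to 7 and 0 to 11 for piRNA, and 0 to 34 and 0 to 23 for lncRNA. Over 29 libraries miRNA calls against VGC were fewest without FL mouse 16 (12), rRNA calls against VGC rose from 0 to 40 without FL mouse 14, and piRNA calls against VGC went to 2 without VGC mouse 12 and 11 without VGC mouse 2.

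The signs of the share differences (FL minus control, percentage points) were unstable. Over 24 libraries they turned to -0.277 for tRNA, -0.832 for rRNA, 2.92 for snRNA, 1.45 for snoRNA and -0.0470 for piRNA against HGC and -0.477 for rRNA against VGC. Over 20 they turned to 0.0398 for miRNA, -1.04 for tRNA, -0.220 for rRNA, 1.34 for snRNA, 0.822 for snoRNA and -0.0269 for piRNA against HGC, and to 0.728 for miRNA, 0.274 for tRNA, -0.358 for rRNA and 0.877 for lncRNA against VGC. With medians they turned to -0.272 for tRNA, 1.26 for snoRNA and -0.0904 for piRNA against HGC and 1.10 for tRNA against VGC, and with identical entries counted once to 0.0798 for snRNA and 0.567 for snoRNA.

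The log2 fold changes of acinar and endocrine miRNAs turned over 24 libraries, against HGC and VGC, to -1.12 and -3.30 for miR-217-5p, -0.22 and -2.30 for miR-216a-5p, -0.32 and -2.39 for miR-216b-5p (-1.30 with DESeq2 against HGC), -0.76 and -2.60 for miR-375-3p (-1.16 with the replicate block against VGC), -0.034 and -2.17 for miR-6969-5p and -1.20 and -3.72 for miR-6969-3p. Over 20 they were -0.85 and -0.82 for miR-217-5p, -0.14 and -0.69 for miR-216a-5p and -0.60 and -0.70 for miR-375-3p. Over 20 libraries miR-376a-3p turned to -0.23 and -0.58, miR-380-3p to -0.24, miR-300-3p to -0.076 and miR-341-3p to -0.052 against HGC, Gm22834 to -0.093 and -0.22, Gm23310, Gm24862 and Gm25461 to -0.089 and -0.22, and Gm23254 to -0.080 and -0.22.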

Other observations

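The 3 piRNA entries that were lower in FL in LAR livers were higher in FL than in VGC in level in TERM livers. piR-1093 had medians of 618 CPM in FL, 398 in HGC and 254 in VGC of TERM, and 84.1, 398 and 304 in LAR. Over the liver-profile TERM libraries its log2 fold change was -0.35 ± 0.43 (adjusted p = 0.752, edgeR) against HGC and 1.26 ± 0.46 (adjusted p = 0.289) against VGC. piR-300, highest in FL mice 16 and 1 among liver-profile LAR libraries, was also higher in FL than in HGC over liver-profile TERM libraries (2.46 ± 0.64, adjusted p = 0.0251, edgeR), where FL mice 1 and 16 were at 2060 and 1096 and the other FL mice at most 93.9. The FL median, 56.0, lay below that of HGC, 66.4.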
